A study of Mus musculus with 56 samples.

Results

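The genes described here encode the ligands of NKG2D, and they are the 5 rows RAET1C, RAET1D, RAET1E, ULBP1 and H60B of a table of 24063 mouse gene rows, written below in the mouse style as Raet1c, Raet1d, Raet1e, Ulbp1 and H60b. They were chosen by name from that table because of their TPM (transcript abundance corrected for gene length and scaled to a total of 1000000 per library) in healthy liver and in luc and lucOS tumours, so their levels and their lucOS against luc differences are given as a description, with no test. The study profiled mouse liver tumours by bulk RNA-seq, 26 libraries in all, to ask how a NOTCH1-driven tumour meets the immune system. The 20 tumours came from C57BL/6 mice after hydrodynamic tail vein injection, which puts plasmid DNA into hepatocytes, and every tumour title names MYC and NICD (the intracellular domain of NOTCH1, its signalling form). Of these, 6 tumours carried luc (luciferase) and 6 carried lucOS (luciferase joined to model T cell antigens), and their titles state no sex. A further 4 luc and 4 lucOS tumours are titled males. The 6 control libraries are labelled healthy liver and name no construct. Ages, construct promoters and the sex of the remaining animals are not given in the sources.

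NKG2D is an activating receptor on natural killer (NK) cells and on some T cells, encoded by Klrk1, and it signals through the adaptors DAP10 (gene Hcst) and DAP12 (gene Tyrobp). Its mouse ligands are distant relatives of MHC class I that stressed, infected or transformed cells can display: the RAE-1 proteins (Raet1 genes), which are held to the membrane by a glycosylphosphatidylinositol (GPI) anchor, MULT1 (Ulbp1), which spans the membrane, and the H60 proteins. RAE-1 alpha, beta and gamma were first described in other strains, and C57BL/6 mice are known for RAE-1 delta and epsilon, from Raet1d and Raet1e.

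All ligand genes that have an entry in the RefSeq gene table for GRCm38.p6, which is the build named mm10 in the submitters' processing notes, lie on chromosome 10. Ulbp1 spans chr10:7444873-7473641, Raet1e chr10:22158542-22189697, H60b chr10:22273474-22288849 and Raet1d chr10:22361861-22374143. Raet1c has no entry in that table or in the table of gene names, and neither have Raet1a and Raet1b, which have rows in the TPM table. The Raet1 genes are near-identical copies and the way reads that fit several copies were counted is not given, so the levels of single Raet1 rows are uncertain. How much of each Raet1 row comes from reads shared between copies was not tested.

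The 250 bases before the listed start of Raet1d and before the second listed start of Raet1e are shown because these 2 genes had opposite rank in healthy liver and in most tumours although their start regions are almost the same. Starts are those of the RefSeq promoter table. They can lie inside the gene spans given above, which come from the RefSeq gene table, so a window can overlap its gene. Sequences are from RefSeq, GRCm38.p6, plus strand, 5′ to 3′, and capitals mark the bases that differ.
Raet1d, chr10:22361644-22361893: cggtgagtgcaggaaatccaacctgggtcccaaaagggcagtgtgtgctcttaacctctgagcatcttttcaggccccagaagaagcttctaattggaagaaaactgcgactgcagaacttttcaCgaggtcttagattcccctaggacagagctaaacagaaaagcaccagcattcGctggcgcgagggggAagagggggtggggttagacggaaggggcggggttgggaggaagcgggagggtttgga
Raet1e second start, chr10:22173247-22173496: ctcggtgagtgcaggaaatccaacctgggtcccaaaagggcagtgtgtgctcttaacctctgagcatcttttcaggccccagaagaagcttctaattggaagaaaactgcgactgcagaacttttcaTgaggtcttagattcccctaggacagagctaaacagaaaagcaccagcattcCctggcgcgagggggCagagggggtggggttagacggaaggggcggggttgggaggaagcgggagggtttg
Over 248 aligned bases, 245 were identical (98.8%). Counting from 1 at the 5′ end of the Raet1d window and giving its base before that of Raet1e, the differences were C126T, G178C and A193C. The first start of Raet1e and the start of Ulbp1, the gene that was high where Raet1d was low, are shown for contrast, with capitals on motif matches.
Raet1e first start, chr10:22158319-22158568, plus strand: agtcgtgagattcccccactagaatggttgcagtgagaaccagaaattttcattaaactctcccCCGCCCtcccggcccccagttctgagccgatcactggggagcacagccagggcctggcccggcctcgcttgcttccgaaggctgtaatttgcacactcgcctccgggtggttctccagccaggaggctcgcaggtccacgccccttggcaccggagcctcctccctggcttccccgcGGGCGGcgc
Ulbp1, chr10:7473478-7473727, minus strand: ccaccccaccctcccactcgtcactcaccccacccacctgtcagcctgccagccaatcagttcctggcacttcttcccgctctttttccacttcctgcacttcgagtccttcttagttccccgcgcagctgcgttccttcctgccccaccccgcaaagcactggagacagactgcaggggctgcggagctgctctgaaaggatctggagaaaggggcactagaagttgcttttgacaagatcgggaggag
Both strands were searched for the E-box of MYC (CACGTG), the RBPJ site of the NOTCH pathway (GTGGGAA), E2F sites (TTTGGCGC and TTTCCCGC), the core of a heat shock element (GAANNTTC), the cAMP response element (TGACGTCA), the C/EBP-ATF element (TGATGCAA) and the GC box of SP1 (GGGCGG). The Raet1d window and the Raet1e second window each held 1 heat shock core, found in 6.69% of 32851 windows of this length, and 1 GC box, found in 32.7%. The first Raet1e window held 2 GC boxes, and the Ulbp1 window matched none of these letters, which says nothing about binding of the factors. For H60b no start region was at hand.

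Tumours differed from healthy liver in which ligand RNA was present. In healthy liver Raet1d had the highest TPM of the 5 ligands and Ulbp1 was near 0. In tumours Raet1d was lower than in every healthy liver, Ulbp1 was higher, and Raet1c, Raet1e and Ulbp1 had similar low levels. In bulk samples, fewer cells of a type and less RNA per cell cannot be told apart.

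Raet1d, which encodes RAE-1 delta, ranged from 7.63 to 21.2 TPM in the 6 healthy livers, with a median of 14.3. In the 20 tumours it ranged from 0.105 to 4.27 TPM, with a median of 1.14. The lowest healthy liver was above the highest tumour, which was 1 of the 4 luc male tumours. By group, Raet1d averaged 14.1 ± 5.44 TPM (SD, n = 6) in healthy liver, 2.36 ± 1.53 (n = 4) in luc males, 1.31 ± 0.596 (n = 6) in lucOS, 1.25 ± 0.774 (n = 4) in lucOS males and 0.752 ± 0.644 (n = 6) in luc tumours. Each of the 4 tumour groups overlapped the next in this order, and none reached the healthy livers. On the scale of log2(TPM + 1), the mean of the 4 tumour groups was below healthy liver by a difference of -2.68 (SE 0.24).

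Raet1e, which encodes RAE-1 epsilon, did not separate tumours from healthy liver. It ranged from 1.60 to 4.36 TPM in healthy liver, with a median of 3.29, and from 0.618 to 7.78 TPM in tumours, with a median of 1.93. The order of group means was luc males (3.88 ± 2.34 TPM), lucOS (3.72 ± 2.24), healthy liver (3.03 ± 1.14), lucOS males (1.39 ± 0.673) and luc (1.29 ± 0.570), and every neighbour in it overlapped. The difference of log2(TPM + 1) between tumours and healthy liver was -0.30 (SE 0.23).

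Raet1c, the row named for RAE-1 gamma, ranged from 3.08 to 8.75 TPM in healthy liver (median 6.40) and from 0.820 to 7.37 TPM in tumours (median 1.88). Its group means were 5.93 ± 2.18 TPM in healthy liver, 4.02 ± 2.43 in luc males, 3.63 ± 2.02 in lucOS, 1.54 ± 0.652 in lucOS males and 1.30 ± 0.471 in luc tumours. Neighbours in this order overlapped as well, and the log2(TPM + 1) difference between tumours and healthy liver was -1.03 (SE 0.23).

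Ulbp1, which encodes MULT1, had the opposite pattern to Raet1d. It lay between 0.0662 and 0.356 TPM in the 6 healthy livers (median 0.176) and between 0.726 and 15.3 TPM in the 20 tumours (median 1.59), so the groups did not overlap. The 4 luc male tumours held 5.34, 2.33, 15.3 and 1.66 TPM, and the 4 lucOS male tumours 3.44, 3.58, 1.75 and 1.46 TPM. Luc tumours of unstated sex averaged 1.50 ± 0.590 TPM (n = 6) and lucOS tumours 1.41 ± 0.803 (n = 6). The spread of the luc males, 6.16 ± 6.30 TPM, rested on 1 library with more Ulbp1 than any other in the study. The mean of the tumour groups was above healthy liver by 1.44 (SE 0.25) in log2(TPM + 1), a scale that understates a change from so low a level.

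H60b was low in all groups. Its highest value was 0.614 TPM, in a luc male tumour, healthy livers ranged from 0.0422 to 0.170 TPM, and 3 of 20 tumours were listed at 0. It was therefore the 1 of 5 ligands that did not reach 1 TPM in 4 libraries and entered no fit. H60c, another H60 gene, was listed at 0 in 24 of 26 libraries, and H60a was not analysed here.

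**Figure D1:**
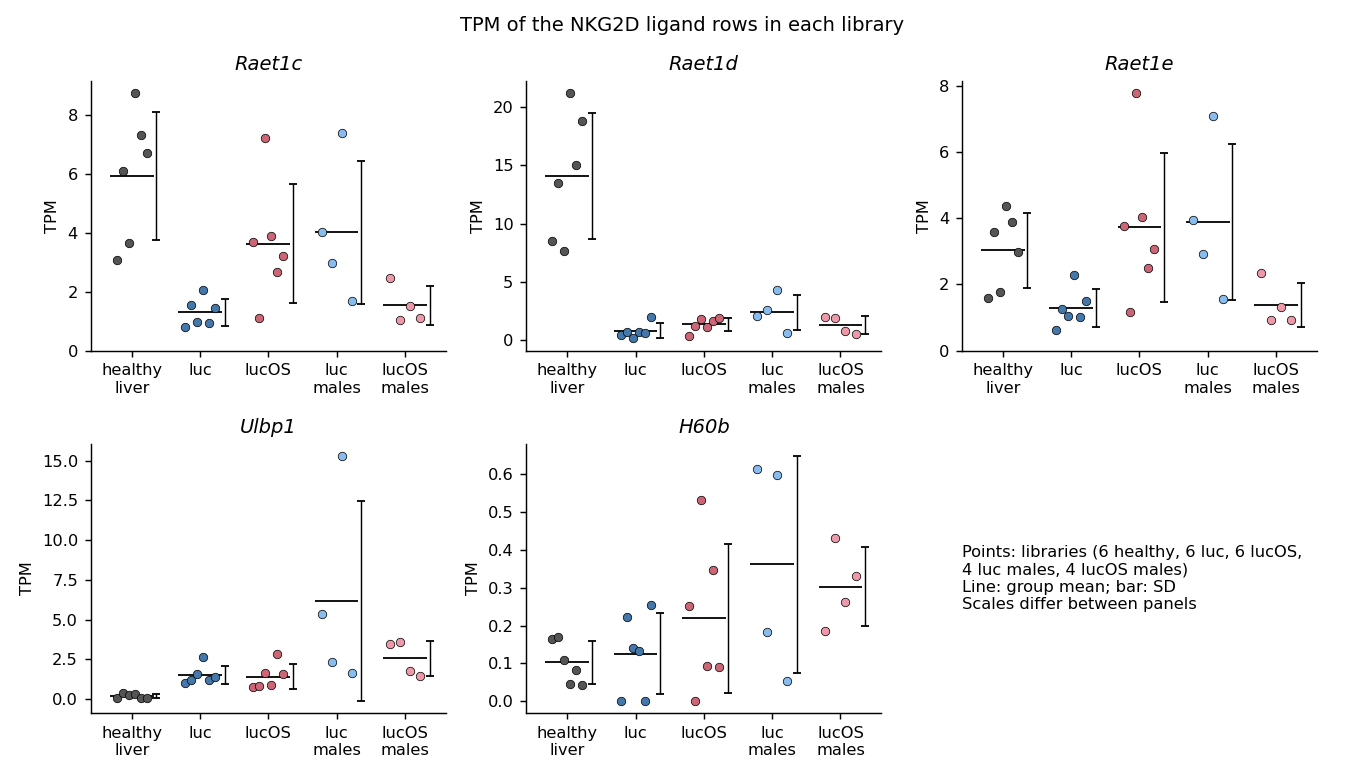
TPM of Raet1c, Raet1d, Raet1e, Ulbp1 and H60b in each library (points), with the group mean (line) and SD (bar), for healthy liver and the 4 tumour groups on a scale of its own per gene. Raet1d in healthy liver (7.63 to 21.2 TPM) lies above all 20 tumours and Ulbp1 in healthy liver (at most 0.356 TPM) below all of them, while the other rows overlap.

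Of the 5 ligands, then, 1 was lower in all tumours than in all healthy livers and 1 was higher. Tumour and healthy libraries differed so widely that 9.83% of the 15767 genes tested were lower without overlap and 54.8% higher without overlap, so the count for the ligands is read against a high background. The median gene was 1.03 higher in tumours on the log2(TPM + 1) scale. With median ratio scaling that median was 0.08, Raet1d was -3.76, Raet1c -2.09, Raet1e -1.27 and Ulbp1 1.05. All 4 differences kept their direction under that scaling.

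Within a library the Raet1 rows stood in other proportions in tumours than in healthy liver. The ratio of Raet1e to Raet1d was 0.159 to 0.267 in healthy liver and 0.487 to 13.3 in tumours, with a tumour median of 1.73, and no tumour fell into the healthy range. A ratio within a library does not move with its scaling. The ratio of Raet1c to Raet1e was 1.70 to 2.24 in healthy liver and 0.897 to 1.33 in tumours, again without overlap. These ratios come from the levels that chose the genes and have no test.

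**Figure D2:**
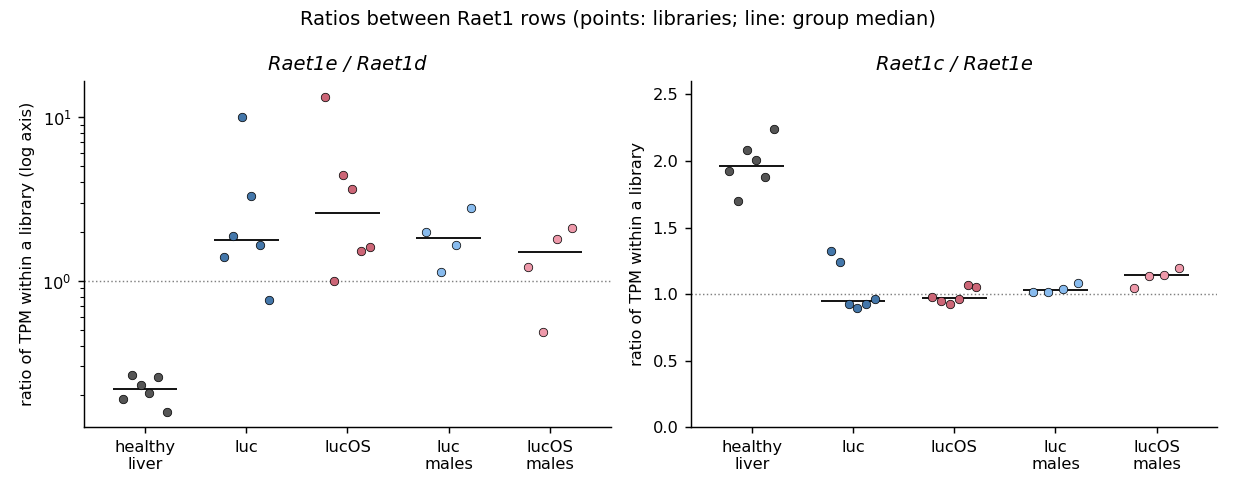
Ratio of TPM within each library (points) for Raet1e over Raet1d, on a log axis, and Raet1c over Raet1e, with the group median as a line. Healthy livers sit at 0.159 to 0.267 and tumours at 0.487 to 13.3 on the left, and healthy livers at 1.70 to 2.24 and tumours at 0.897 to 1.33 on the right.

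The rows Raet1a and Raet1b, named for RAE-1 alpha and beta, followed Raet1d in healthy liver. Raet1b averaged 14.1 ± 5.34 TPM there (n = 6), compared with 1.11 ± 0.652 in luc tumours (n = 6), and Raet1a 11.4 ± 4.30 against 1.02 ± 0.470. The ratio of Raet1a to Raet1b was 0.804 to 0.814 in all 6 healthy livers, a spread far narrower than that of either level, and 0.804 to 1.88 in tumours. Raet1d to Raet1b was 0.940 to 1.05 in healthy liver and 0.133 to 1.30 in tumours.

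The healthy livers were of 2 animal number series, and the level differed between them. Raet1d averaged 9.86 TPM in the 3 animals of series AL15 and 18.4 in the 3 of series PM5, Raet1c 4.28 and 7.58, and Raet1e 2.32 and 3.75. What the series stand for is not given in the labels.

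Among tumours of unstated sex, the rows Raet1c and Raet1e were higher with lucOS than with luc. The 6 luc tumours ranged from 0.820 to 2.05 TPM of Raet1c (median 1.22) and the 6 lucOS tumours from 1.09 to 7.21 (median 3.46). For Raet1e the ranges were 0.618 to 2.28 (median 1.15) and 1.16 to 7.78 (median 3.42). In each case 1 lucOS tumour, replicate 2, lay within the luc range and the other 5 lay above it. The lucOS minus luc differences in log2(TPM + 1) were 0.92 (SE 0.29) for Raet1c, 0.95 (SE 0.30) for Raet1e, 0.42 (SE 0.30) for Raet1d and -0.09 (SE 0.35) for Ulbp1. Since this contrast chose the genes, these have no test.

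The 12 tumours fell into 2 animal number series, AL51 and AL54, with both constructs in each. For Raet1c the difference was 0.59 in series AL51 (3 luc, 2 lucOS) and 1.03 in series AL54 (3 luc, 4 lucOS), and for Raet1e it was 0.72 and 0.97. For both of these rows the groups overlapped in series AL51 and did not in series AL54. For Ulbp1 the differences were -0.34 and -0.02, and the groups overlapped in series AL54 but not in series AL51.

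In the male tumours all 4 ligands that entered the fit had lower means with lucOS than with luc. Raet1c was 4.02, 2.98, 7.37 and 1.70 TPM in the luc males and 2.47, 1.04, 1.52 and 1.12 TPM in the lucOS males. Raet1e was 3.96, 2.93, 7.07 and 1.57 TPM against 2.36, 0.920, 1.32 and 0.941 TPM. In both rows the lowest luc male overlapped the highest lucOS male. The lucOS minus luc differences in log2(TPM + 1) were -0.89 (SE 0.35) for Raet1c, -0.95 (SE 0.37) for Raet1e, -0.51 (SE 0.36) for Raet1d and -0.68 (SE 0.42) for Ulbp1. None of the 5 ligands separated the constructs without overlap, in males or in the other tumours, where 7.0% and 0.11% of all 15453 genes tested did. Over all genes, limma with Benjamini-Hochberg adjustment called 0 genes (0.0%) between lucOS and luc tumours of unstated sex, with 381 at an unadjusted p under 0.05, and 54 genes (0.349%) in males.

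For Raet1c, Raet1d and Raet1e the antigen difference had opposite signs in the 2 sets of tumours, and for Ulbp1 it was negative in both. The difference of the differences was -1.81 (SE 0.46) for Raet1c, -1.90 (SE 0.48) for Raet1e, -0.93 (SE 0.47) for Raet1d and -0.60 (SE 0.55) for Ulbp1. It contains the contrast that chose the genes and is given without a test. In the same fit 0 of 15453 genes were called (0.0%), with 1838 at an unadjusted p under 0.05.

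The rule did not name the comparison of male tumours with tumours of no stated sex, and it was tested. It draws on the same tumour libraries as the rule, so its p-values are not independent of how the genes were chosen. Among luc tumours, limma called 3 of the 4 fitted ligands higher in males, against 8.94% of all genes called higher, 7.97% lower and 16.9% in either direction. The difference in log2(TPM + 1) was 1.03 for Raet1c (SE 0.32, adjusted p = 0.0351), 1.01 for Raet1e (SE 0.34, adjusted p = 0.0474) and 1.17 for Ulbp1 (SE 0.39, adjusted p = 0.0446). Of the 4 luc males, 3 lay above all 6 luc tumours of unstated sex in Raet1c and in Raet1e, and 2 did in Ulbp1. Raet1d was 0.88 in luc males (SE 0.33) and did not pass, with a limma adjusted p of 0.0766. Raet1c and Raet1e may share reads, so their calls are not independent. The 3 calls rested on luc male replicate 3, which held the highest Raet1c, Ulbp1 and Raet1d of all tumours. Without it the limma differences were 0.74 for Raet1c (adjusted p = 0.153), 0.72 for Raet1e (adjusted p = 0.192) and 0.65 for Ulbp1 (adjusted p = 0.197). With median ratio scaling Raet1e and Ulbp1 no longer passed (limma adjusted p = 0.0513 and 0.051), and with quantile normalization none of the 3 did (limma adjusted p = 0.0804 for Raet1c, 0.0969 for Raet1e and 0.0836 for Ulbp1). Raet1a and Raet1b, which may share reads with the other Raet1 rows, were also called, at 1.11 (adjusted p = 0.018) and 1.23 (adjusted p = 0.0154). With 1 library left out, their limma adjusted p reached 0.0876 and 0.0776.

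Among lucOS tumours 0 of the 4 ligands were called, while 24.4% of all genes were (15.2% higher, 9.29% lower). Raet1c was -0.79 (SE 0.32, unadjusted p = 0.0251, limma adjusted p = 0.0802) and Raet1e -0.89 (SE 0.34, unadjusted p = 0.0159, limma adjusted p = 0.0593) in males. Raet1d was -0.05 (limma adjusted p = 0.916) and Ulbp1 0.57 (limma adjusted p = 0.281). Of these 4, 2 had an unadjusted p under 0.05 by limma, where 39.2% of all genes did. With median ratio scaling Raet1e passed, at -0.96 and a limma adjusted p of 0.048, and with quantile normalization Raet1c and Raet1e did, at -1.02 (adjusted p = 0.035) and -1.12 (adjusted p = 0.0266).

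**Figure D3:**
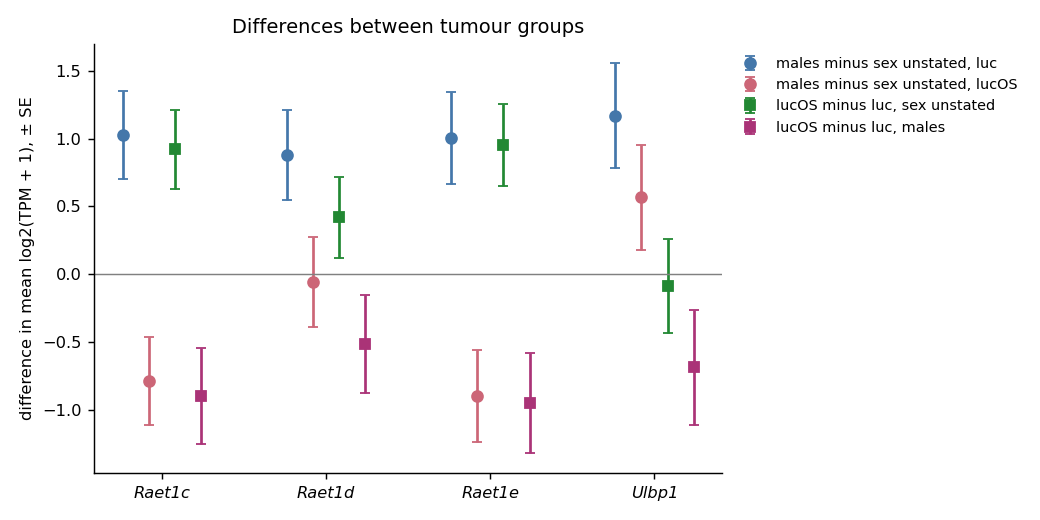
Differences between tumour groups in mean log2(TPM + 1) for Raet1c, Raet1d, Raet1e and Ulbp1, with the SE as a bar. Raet1c and Raet1e stand near 1 for males in luc tumours and for lucOS among tumours of unstated sex, and between -0.79 and -0.95 for males in lucOS tumours and for lucOS in males.

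All 8 male tumours belong to animal series AL75, and their TPM miss a total of 1000000 by -3.8 to 256.3 while those of the other libraries do not, so sex, series and processing cannot be told apart. Male tumours also held RNA of other cell types. The 5 lung epithelium markers summed to 11.9 to 52.8 TPM in male tumours and 0.0812 to 1.79 TPM in the other tumours, and all 5 were called higher in males of each construct. The 4 B cell markers summed to 10.6 to 30.4 TPM against 0.531 to 2.39 TPM and were likewise all called. Over all genes, 8.94% were called higher in luc males and 15.2% in lucOS males. The 6 T cell markers reached 3.76 to 5.77 TPM in luc males and 5.42 to 21.6 TPM in lucOS males, against 0.897 to 7.52 TPM in the other tumours. In luc males Cd3d, Cd3e, Cd3g, Cd8a and Cd4 averaged 0.283, 0.252, 0.574, 0.210 and 1.18 TPM. In lucOS tumours of unstated sex they averaged 0.292, 0.344, 0.680, 0.532 and 1.38 TPM. For Cd2 the means were 2.36 and 0.210 TPM. Means in luc tumours of unstated sex were below those of luc males for all 6. In lucOS males 2 of 7 hepatocyte, 3 of 6 macrophage, 3 of 5 endothelial and 2 of 5 fibroblast markers were called higher. Of 6 proliferation markers 2 were called lower there, as were 9.29% of all genes. In luc males 2 of 5 endothelial and 1 of 5 fibroblast markers were called higher, with 0 hepatocyte, macrophage or proliferation markers called. The hepatocyte markers summed to 912 to 14110 TPM in lucOS males and 375 to 4455 TPM in the other lucOS tumours. The part of these cells in the ligand differences was not tested.

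Among tumours of the same group some pairs of rows varied together. With group means removed, Raet1c and Raet1e had a Pearson r of 0.99 over 20 tumours, which is a description of 2 rows that may share reads. For Raet1d and Ulbp1, whose genes lie apart on the chromosome, r was 0.661 (adjusted permutation p = 0.0336) and Spearman's rho 0.692 (adjusted p = 0.015), adjusted over 6 pairs. Without the 2 tumours farthest from the median of Raet1d, r was 0.659. These were luc replicate 6 and luc male replicate 4. Luc male replicate 3, with the most Raet1d and Ulbp1 of all tumours, stayed in, and r without it was not tested. Over the 12 tumours of unstated sex alone, r was 0.401 (adjusted permutation p = 0.56), so the relation was not detectable there.

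For Ulbp1 with Raet1c and with Raet1e, r was 0.603 and 0.592 (adjusted permutation p = 0.0402 for each). Spearman's rho was 0.472 and 0.486, with an adjusted permutation p of 0.101 for each, and r over the 12 tumours was 0.31 and 0.316 (adjusted permutation p = 0.56). Without the 2 tumours farthest from the median of the Raet1 row, r was 0.689 and 0.668. Luc male replicate 3 stayed in here too. Raet1d had an r of 0.472 with Raet1c (rho 0.409) and 0.464 with Raet1e (rho 0.42), with adjusted permutation p of 0.0732 for r and 0.105 for rho in each. Without the farthest 2, these were 0.545 and 0.356.

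**Figure D4:**
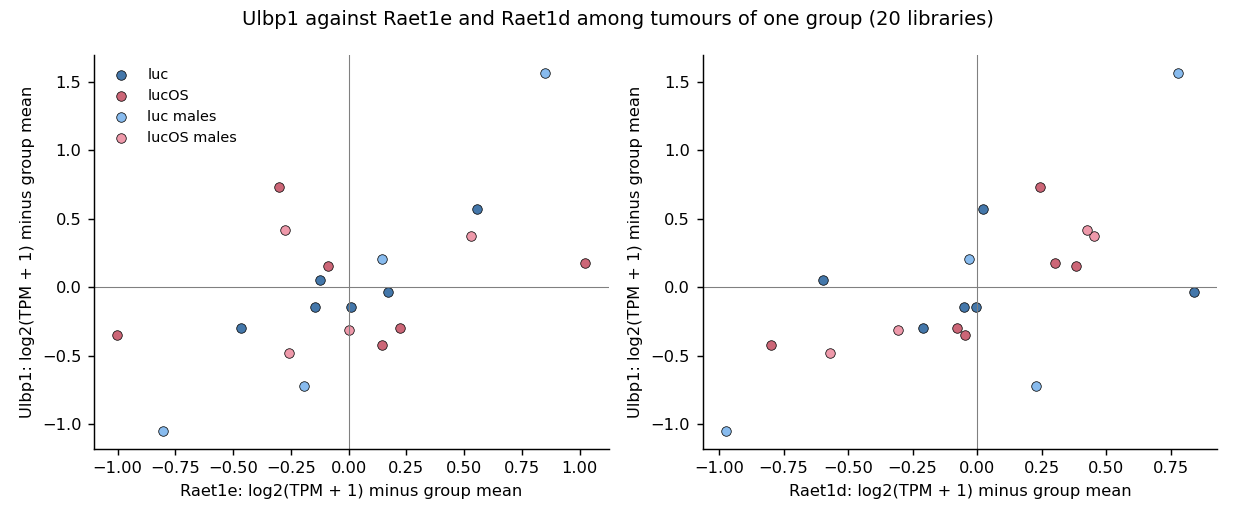
Ulbp1 against Raet1e (left) and Raet1d (right) in 20 tumours, as log2(TPM + 1) minus the mean of the tumour's group, coloured by group. Points spread along the diagonal (r = 0.592 on the left and 0.661 on the right), with 1 luc male at the upper right of each panel.

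The rows most like each ligand among the 20 tumours were sought in 15453 genes by Pearson r with group means removed. The rows Raet1a and Raet1b, which may share reads with the other Raet1 rows, had an r of 0.926 and 0.87 with Raet1e, 0.922 and 0.872 with Raet1c, 0.724 and 0.778 with Raet1d, and 0.704 and 0.69 with Ulbp1. Leaving out the Raet1 rows, nearest to Raet1e were Rab15, a small GTPase (0.839), Mab21l3 (0.829) and Trim6 (0.808), and nearest to Raet1c were Rab15 (0.828), Mab21l3 (0.819) and Txndc12 (0.806). Nearest to Raet1d were Emp1, a membrane protein (0.786), Syk, a tyrosine kinase of immune signalling (0.762), and Rinl (0.756). Nearest to Ulbp1 were Hoxc10, a homeobox factor (0.902), Zfp934 (0.875) and Hunk, a kinase (0.873). These are the highest of many values over libraries that share their processing, and have no test.

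Of the 6 genes beside the ligands on chromosome 10 that were tested, 5 were called higher in tumours, where 71.8% of all genes were. After the Raet1 cluster, Slc2a12, a sugar transporter, was higher in tumours by 1.25 (SE 0.16, limma adjusted p = 6.07e-08) in log2(TPM + 1) and Tbpl1 by 2.21 (SE 0.07, limma adjusted p = 9.36e-20). Before it, E030030I06Rik was -0.25 (SE 0.17, limma adjusted p = 0.174), and -1.07 with median ratio scaling (adjusted p = 1.03e-06). Beside Ulbp1, Cnksr3 was higher by 1.61 (limma adjusted p = 1.04e-11). Lrp11 was higher by 1.14 and Pcmt1 by 0.74, but Pcmt1 was -0.53 with median ratio scaling and Lrp11 -0.13 with quantile normalization. The neighbours Ipcef1 and 4930444G20Rik were too low to be tested.

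The receptor itself was scarce. Klrk1 lay between 0.552 and 0.896 TPM in healthy livers, between 0.0633 and 0.180 with luc, between 0 and 0.393 with lucOS and between 0.0249 and 0.143 in luc males. In lucOS males it was 0.317, 1.16, 0.280 and 0.906 TPM. Thus luc tumours of both sets and lucOS tumours of unstated sex lay below all healthy livers, and the lucOS males overlapped them. Klrk1 did not reach 1 TPM in 4 libraries and was not tested.

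Its adaptors behaved otherwise. Hcst averaged 1.45 ± 0.665 TPM in healthy liver (n = 6), and group means in tumours were 1.16 to 2.29 TPM. Tyrobp, which myeloid cells also express, averaged 25.8 ± 4.75 TPM in healthy livers, and its tumour group means were 32.6 to 52.2 TPM. Neither was called between tumours and healthy liver (0.13, limma adjusted p = 0.605, and 0.50, limma adjusted p = 0.0589). With median ratio scaling they were -0.69 (adjusted p = 0.00567) and -0.76 (adjusted p = 0.00321).

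Of the 10 genes listed for NKG2D signalling, 9 were tested between tumours and healthy liver, with 4 called higher and 2 lower by limma, where 71.8% of all genes were called higher and 16.9% lower (88.7% in all). The list median was 0.50 against 1.03 over all genes. Zap70, a kinase of T and NK cells, was -2.68 (adjusted p = 1.69e-13) and Pik3r1, a regulatory subunit of PI3 kinase, -1.69 (adjusted p = 6.61e-10). Plcg2, a phospholipase, rose by 1.50 (adjusted p = 2.39e-06) and Syk by 1.24 (adjusted p = 1.66e-05), although Syk was -0.04 and Plcg2 0.23 with quantile normalization and neither passed there. With median ratio scaling 1 gene of the list was higher and 6 lower.

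NK cell genes were low in all groups. The 16 listed genes had summed levels of 6.80 to 13.4 TPM in healthy livers, 1.98 to 9.40 with luc, 3.57 to 28.8 with lucOS, 6.96 to 15.6 in luc males and 9.16 to 35.5 in lucOS males. Ncr1, the gene of the NK receptor NKp46, was listed at 0 in 5 of 6 luc tumours and 4 of 6 lucOS tumours of unstated sex, against 0.137 to 0.360 TPM in healthy liver. Prf1 (perforin) averaged 0.115 ± 0.0630 TPM in healthy liver (n = 6), 0.137 ± 0.104 in luc, 0.453 ± 0.440 in lucOS, 0.326 ± 0.0431 in luc males and 1.07 ± 0.766 in lucOS males. Gzmb (granzyme B) averaged 0.817 ± 0.191, 0.203 ± 0.235, 0.680 ± 0.747, 0.571 ± 0.236 and 1.02 ± 0.546 TPM in the same order. For Ncr1, Prf1 and Gzmb the lucOS male mean was the highest of the 5 groups, but its range overlapped that of healthy liver for Ncr1 and Gzmb.

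**Figure D5:**
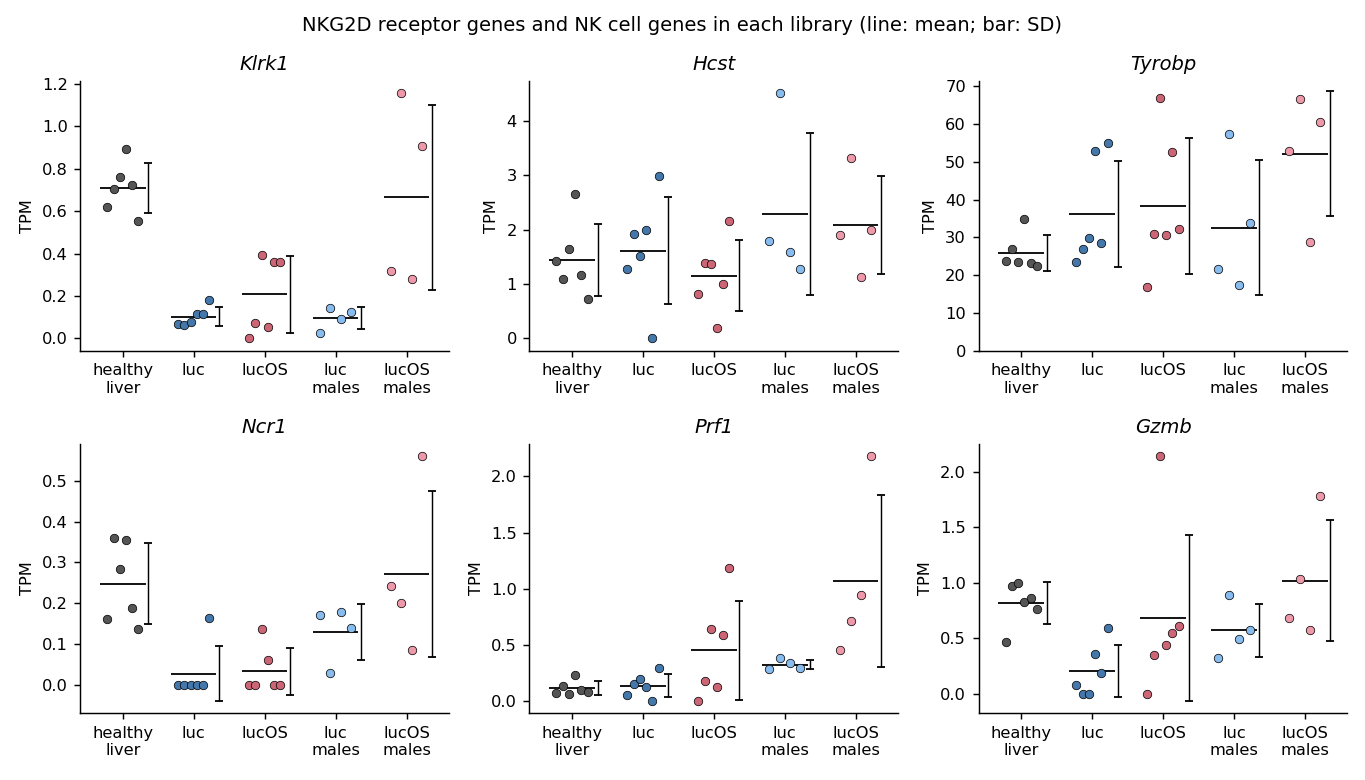
TPM of the receptor gene Klrk1, its adaptors Hcst and Tyrobp, and the NK cell genes Ncr1, Prf1 and Gzmb in each library (points), with group mean and SD. Klrk1 lies at 0.552 to 0.896 TPM in healthy liver and at most at 0.393 TPM in the tumour groups other than the lucOS males, which reach 1.16 TPM.

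Of the 16 NK genes, 6 were tested, and 1 was called between tumours and healthy liver, where 88.7% of all genes were. This was Itga2, an integrin that other cells express too, which rose by 1.15 (limma adjusted p = 8.57e-08). Gzma was 0.01 (limma adjusted p = 0.983), with its sign depending on the setting. Under median ratio scaling 4 of the 6 were called lower. In male luc tumours Ccl5, a chemokine, rose by 1.65 (limma adjusted p = 0.0383), and in male lucOS tumours Ccl5 by 1.54 (limma adjusted p = 0.0407) and Nkg7, a granule protein, by 1.16 (limma adjusted p = 0.0475). These calls lay near the threshold: in male lucOS tumours Ccl5 and Nkg7 no longer passed with median ratio scaling (limma adjusted p = 0.0543 and 0.0547) or with only the compared groups (limma adjusted p = 0.105 and 0.0749), and Ccl5 in male luc tumours did not with quantile normalization (limma adjusted p = 0.0551).

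Of 15 tested ligands of other NK receptors, 6 were called higher and 6 lower in tumours (list median 0.33), against 71.8% and 16.9% of all genes. The split depended on scaling, with 2 higher and 10 lower under median ratio scaling and 2 higher and 11 lower under quantile normalization. Ceacam1, an adhesion molecule that can inhibit NK cells, changed by -3.98 (limma adjusted p = 7.05e-12), H2-T23, which encodes Qa-1, by -3.41 (limma adjusted p = 2.33e-11), Clec2d, a ligand of NK receptors of the NKR-P1 family, by -3.31 (limma adjusted p = 6.19e-13) and B2m, the light chain of MHC class I, by -2.68 (limma adjusted p = 6.34e-11). Ceacam1 averaged 77.4 ± 8.54 TPM in healthy liver (n = 6) and 1.84 ± 0.832 TPM in luc tumours (n = 6). Several of these genes were higher in male luc tumours: Ceacam1 by 1.70 (limma adjusted p = 0.0204), H2-D1 by 1.44 (limma adjusted p = 0.0158) and H2-K1 by 1.16 (limma adjusted p = 0.0188), with Clec2d lower at -1.03 (limma adjusted p = 0.0319). In male lucOS tumours H2-T23 rose by 1.64, Cd48 by 1.01 and Cd86 by 0.97 (limma adjusted p = 0.0118, 0.0383 and 0.0146). Each of these calls in male tumours was lost with at least 1 of the libraries left out.

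Genes that are known to regulate ligand RNA, in growth control, the DNA damage response and stress responses, were higher in tumours throughout the list. The limma fit called 14 of 14 higher, where 71.8% of all genes were, with a list median of 1.79 against 1.03 over all genes. Chek1, a DNA damage kinase, rose by 3.20, Trp53 by 2.94, E2f2, a cell cycle factor, by 2.78 and Chek2 by 2.78, each with a limma adjusted p of at most 7.66e-14. With median ratio scaling 10 of the 14 were higher and 3 lower. Myc, which every tumour title names, averaged 4.90 ± 2.08 TPM in healthy livers, 26.4 ± 4.98 with luc and 26.8 ± 3.49 with lucOS. Notch1 averaged 5.93 ± 2.66, 469 ± 152 and 576 ± 167 TPM in the same order. How much of either row comes from the injected constructs was not tested.

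In male tumours 3 of the 14 regulators were lower and 0 higher in each construct. Over all genes, 7.97% were called lower and 8.94% higher in luc males, and 9.29% and 15.2% in lucOS males. Myc fell by 0.83 in luc (limma adjusted p = 0.00481) and by 1.00 in lucOS tumours (limma adjusted p = 0.000957), and Chek2 by 0.60 and 0.67 (limma adjusted p = 0.0163 and 0.00736). The third was Trp53 in luc (-0.86, limma adjusted p = 0.0252) and Chek1 in lucOS tumours (-0.89, limma adjusted p = 0.0134). Of these calls, only those of Myc and of Chek2 in lucOS tumours held with each library left out. In luc males Raet1c, Raet1e and Ulbp1 were called higher, in calls that rested on 1 library. In lucOS males Raet1c was -0.79, Raet1e -0.89, Raet1d -0.05 and Ulbp1 0.57, none of them called. A relation between these regulators and the ligands was not tested.

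After transcription, ligands can be shed by proteases or held back by membrane turnover, and RAE-1 needs a GPI anchor. Of 6 tested genes for shedding and turnover, 5 were higher in tumours, where 71.8% of all genes were: Mmp14, a membrane metalloprotease, by 4.09 (limma adjusted p = 9.15e-17), Timp3, an inhibitor of such proteases, by 3.05 (limma adjusted p = 3.61e-10), Adam10, a sheddase, by 1.96 (limma adjusted p = 1.52e-15) and Mmp9 by 1.33 (limma adjusted p = 0.000379). Under median ratio scaling 4 were higher and 2 lower, and under quantile normalization 3 were higher and 0 lower, with Mmp9 at 0.28 (limma adjusted p = 0.354). Timp3 was also higher in luc males, by 1.62 (limma adjusted p = 0.0129), but its limma adjusted p reached 0.0627 with 1 library left out. Marchf4 and Marchf9 were not analysed here.

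For GPI anchor assembly 9 of 11 genes were higher in tumours, where 71.8% of all genes were. They were led by Pigf at 2.77 (limma adjusted p = 1.13e-18), Piga at 1.44, Pigt at 1.41 and Pigu at 1.08. With median ratio scaling 2 of the list were higher and 7 lower. Pigu changed sign there, at -0.16. The list median of 0.84 was below that of all genes.

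Among cytokines that act on NK cells, 3 of 6 tested genes were higher and 2 lower in tumours, against 71.8% and 16.9% of all genes. All 3 genes of TGF-beta, which is known to lower NKG2D on NK cells, rose: Tgfb2 by 3.79 (limma adjusted p = 4.46e-21), Tgfb1 by 3.68 (limma adjusted p = 8.39e-15) and Tgfb3 by 3.59 (limma adjusted p = 7.95e-15). Il18, an activating cytokine, fell by 1.94 (limma adjusted p = 4.61e-08). In male lucOS tumours Il18 was higher by 1.11 (limma adjusted p = 0.0347) and Tgfb3 by 1.05 (limma adjusted p = 0.019). With 1 library left out, their limma adjusted p reached 0.129 and 0.0943.

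Of the 67 tested genes in these lists, 0 were called between lucOS and luc by limma, in either set of tumours, with 0 at an unadjusted p under 0.05 in those of unstated sex and 9 in males. Over all genes 0.0% and 0.349% were called in these comparisons, and 2.47% and 17.3% had an unadjusted p under 0.05.

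The cell makeup of the libraries differed between healthy liver and tumours. The 7 hepatocyte markers summed to 104600 to 152400 TPM in healthy liver and to 242 to 14110 TPM in tumours. All 7 were called lower, where 16.9% of all genes were. The 6 proliferation markers summed to 4.61 to 14.3 TPM and 219 to 769 TPM, and the 6 bile duct markers to 27.9 to 35.0 TPM and 357 to 2360 TPM. No hepatocyte marker was at 0 in all libraries of a group. The part of cell makeup in the Raet1d and Ulbp1 differences was not tested. Each title carries its own number, but nothing else says how the animals relate, so p-values measure only the spread between these samples.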

How the data were processed

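Bulk RNA-seq of 26 libraries was used. The authors deposited 1 table of TPM. Per the submitters' processing notes, TopHat2, featureCounts, DESeq2 and mm10 are named, with no roles or versions. TPM keeps no read depth, which is therefore unknown, and counting error cannot be given. Libraries listed 16921 to 19172 genes above 0. Rows with date-like names (27) and 2 rows sharing a name were left out.

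Groups came from the titles. Values were tested as log2(TPM + 1) with limma 3.58.1 (trend, robust) in R 4.3.3, for genes that reached 1 TPM in 4 or more of the libraries fitted. Calls were made at 0.05 after Benjamini-Hochberg adjustment over all of these genes. Tumours were compared with healthy liver as the mean of 4 group means over 26 libraries, and the other comparisons were fitted on 20 tumours. Pairs of ligands were tested with 100000 permutations within groups. The procedure was tested on simulated data.

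Members and gene lists were chosen with earlier results of these data known. All members were described, and per list and comparison up to 4 called genes with the largest difference were named, besides the receptor, Ncr1, Prf1, Gzma, Gzmb, Notch1 and Myc, the 3 genes most alike to each ligand (outside the Raet1 rows, whose values are given apart) and the nearest 2 protein coding neighbours on each side. The markers of macrophages, endothelium and fibroblasts were also listed. Of these, 2 of 6, 2 of 5 and 3 of 5 were called higher in tumours, and 1, 1 and 2 lower. Over all genes 71.8% were called higher and 16.9% lower. Alternatives were other pseudocounts (0.1 and 0.5), no filter, median ratio scaling, quantile normalization, array weights, only the groups compared, the animal number series as a term (lucOS against luc in tumours of unstated sex), and each library left out. Droplet libraries and T cell receptor tables were not analysed here.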

Additional observations from a re-analysis of the deposited data

Results flagged for a closer look

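In 7 of 70 groups examined, 1 library lay far from the others of its group by Dixon's test, where chance alone gives about 1 in 20. Raet1d was 1.99 TPM in luc replicate 6, the highest of 6, and Ulbp1 was 2.64 TPM in luc replicate 4, the highest of 6. Raet1a was 4.78 TPM in lucOS replicate 3, the highest of 6, a library in which Gzmb also stood out at 2.14 TPM. Hcst was 4.51 TPM in luc male replicate 2, the highest of 4. Tyrobp was 35.0 TPM in healthy liver replicate 4, and Ncr1 was 0.165 TPM in luc replicate 6, each the highest of 6.

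The male difference ran opposite ways in the 2 constructs for 2 ligands. Every luc male tumour was above the mean of the luc tumours of unstated sex, and every lucOS male was below the mean of the corresponding lucOS tumours. The difference of the differences was -1.81 for Raet1c and -1.90 for Raet1e in log2(TPM + 1), and it was not tested because the contrast chose the genes.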

How the results depend on the processing

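No paired analysis was possible because the labels give the groups no shared replicate numbers. With the animal number series (AL51 or AL54) as a term, lucOS against luc in tumours of unstated sex also gave 0 called genes.

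Genes called higher and lower between tumours and healthy liver numbered 11328 and 2658, against 6832 and 6354 with median ratio scaling and 6772 and 5953 with quantile normalization. In male lucOS tumours the 2342 and 1436 became 1450 and 2117, or 1299 and 2220, and in male luc tumours the 1382 and 1231 became 1097 and 1573 with quantile normalization. Between lucOS and luc in males the 40 and 14 became 21 and 28 with median ratio scaling, 33 and 28 with quantile normalization and 35 and 34 with array weights.

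For male luc tumours the calls were lost with quantile normalization (Raet1c 0.863, Raet1e 0.846, Ulbp1 1.01), with median ratio scaling for Raet1e (0.995) and Ulbp1 (1.16), and without the filter or with only the compared groups for Raet1e (1.01) and Ulbp1 (1.17). Raet1d passed with array weights (0.788). For male lucOS tumours Raet1c (-1.02) and Raet1e (-1.12) passed with quantile normalization and Raet1e with median ratio scaling (-0.962), while Raet1d turned to 0.135 with array weights. The causes were not tested.

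With each library left out, the male luc differences were 0.741 to 1.29 (Raet1c), 0.618 to 1.20 (Raet1d), 0.722 to 1.27 (Raet1e) and 0.645 to 1.52 (Ulbp1), and the male lucOS differences -0.991 to -0.597, -0.214 to 0.136 and -1.10 to -0.69 for the Raet1 rows. Counts of called genes were 1488 (without luc male replicate 3) to 3045 in male luc, 1863 to 4792 in male lucOS, 0 to 578 (without lucOS male replicate 2 and without luc male replicate 4) for the antigen in males, 0 to 1 in the other tumours and 0 to 1 for the interaction. The 54 antigen calls in males became 34 without the filter and 0 with only the compared groups.

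Of the levels against healthy liver, a pseudocount of 0.1 gave -3.48 for Raet1d, 3.02 for Ulbp1 and 0.612 for H60b. Median ratio scaling gave -2.09 for Raet1c, -3.76 for Raet1d and -1.27 for Raet1e. H60b was 0.169 with the main settings and -0.00677 with median ratio scaling, so its direction turned. A pseudocount of 0.1 gave lucOS minus luc differences of 0.873 for Raet1d and 0.421 for H60b. The correlations over the 12 tumours of unstated sex were 0.31, 0.401 and 0.316 for Ulbp1 with Raet1c, Raet1d and Raet1e.

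Other directions that turned in the comparison with healthy liver were those of Hcst (-0.687 with median ratio scaling, -1.11 with quantile normalization), Tyrobp (-0.763 and -0.345), Gzma (-0.751 and -1.20, -0.247 and -0.0535 with pseudocounts of 0.1 and 0.5, -0.0419 with array weights, and -0.0463 to 0.0798 with each library left out), Syk (-0.0446, quantile), Lrp11 (-0.131, quantile), Pigu (-0.161, median ratio) and Pcmt1 (-0.529, median ratio). Besides the ligands, calls between male and other tumours that were lost under at least 1 setting other than leaving out a library were those of Ccl5, Clec2d and Trp53 in luc and of Ccl5, Nkg7, Cd48 and Il18 in lucOS among the genes named for these comparisons. With at least 1 of the libraries left out, each of those calls was lost as well. Further named calls were lost in luc, where the highest limma adjusted p was 0.088 for Ceacam1, 0.0719 for H2-D1 and 0.0857 for H2-K1. It was 0.0627 for Timp3 and 0.0723 for Chek2. In lucOS it was 0.0588 for H2-T23, 0.0617 for Cd86, 0.0707 for Chek1 and 0.0943 for Tgfb3. The calls of Myc in both constructs and of Chek2 in lucOS held. Tyrobp in male luc tumours was -0.525 to 0.0283 with each library left out.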
